A study of Homo sapiens with 7 samples.

Results

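Chromosomes 4, 8, 9 and 21 were described because they were chosen by their low loop numbers, relative to wild type, in both lists from ZNF143-deleted cells, and every loop with its anchors on one of them was taken. They held 11481 of the 135475 loops in the 7 lists. By list, these were 904 of 11981 ZNF143 loops, 2053 of 19313 CTCF loops and 1838 of 16788 RAD21 loops in wild-type cells. In ZNF143KO cells they were 1194 of 15597 CTCF loops and 941 of 10804 RAD21 loops. In CTCF-AID cells they were 3198 of 40405 ZNF143 loops at 0 h of auxin and 1353 of 20587 at 24 h. The fall from wild-type to ZNF143KO lists chose these chromosomes and is therefore given as a description. The lists from auxin-treated cells and the wild-type ZNF143 list were not used to choose them.

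Each list came from 1 HiChIP library, a ligation assay in which an antibody enriches DNA contacts held at a chosen protein. All cells were HEC-1-B, a human uterine adenocarcinoma line, or lines derived from it: wild type, ZNF143KO, and CTCF-AID with auxin (IAA) for 0 or 24 h. CTCF-AID cells make CTCF with a degron, a tag that auxin turns into a signal for destruction. Whether the derived lines were single clones is not given in the sources used here, and the removal of ZNF143 and of CTCF could not be checked from these lists. With 1 library per group there was no replicate error and no test. All intervals are 95% and cover counting error only; neighbouring loops often use the same anchor, so the true error is larger.

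Cohesin, of which RAD21 is a subunit, draws out chromatin loops and is halted where CTCF occupies its DNA motif, so many CTCF and cohesin loops share anchors. ZNF143 is a zinc-finger activator that binds near many promoters. A line can also gain or lose whole chromosomes or arms in culture, which changes the material available for every loop on them. Copy number was not measured in these data, and its part in any result below was not tested. What the lists do show is whether loops were fewer along the whole of a chromosome or in some of its segments.

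In CTCF lists, loop numbers fell by a larger share on each of the 4 chromosomes than on any other chromosome. Chromosome 4 went from 342 loops in wild-type to 166 in ZNF143KO cells, a ratio of 0.485 (0.401 to 0.586). Chromosome 9 went from 812 to 451 loops (0.555, 0.494 to 0.624). Chromosome 21 went from 196 to 118 loops (0.602, 0.475 to 0.760), and chromosome 8 from 703 to 459 (0.653, 0.579 to 0.735). These were the lowest ratios of 23 chromosomes. Together the 4 chromosomes had a ratio of 0.582, against 0.834 for the other chromosomes pooled, so their ratio relative to the others was 0.697 (0.647 to 0.751). The other 19 chromosomes ran from 0.661 on chromosome X to 0.970, with a median of 0.850. The layout of the lists changed together with genotype in this and the RAD21 comparison, so the way the lists were made and the deletion cannot be told apart. Thinning the wild-type list to the total count of the ZNF143KO list gave a relative ratio of 0.711 for CTCF and 0.799 for RAD21, so the difference was nearly as large at equal listed totals.

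RAD21 loops fell on every one of these chromosomes too, but chromosome X was lower than all 4. Chromosome 4 went from 316 to 140 loops (0.443, 0.360 to 0.542), and chromosome 9 from 722 to 337 (0.467, 0.409 to 0.532). Chromosome 21 went from 168 to 94 loops (0.560) and chromosome 8 from 632 to 370 (0.585). Relative to the other chromosomes, which pooled at 0.660, chromosome 21 stood at 0.848 (0.658 to 1.09) and chromosome 8 at 0.887 (0.779 to 1.01). Both of those intervals include 1, whereas chromosomes 4 and 9 lay below it. Over both antibodies, chromosome 8 (0.621) was the highest of those described. Chromosome X (0.517) and chromosome 18 (0.656) were the nearest of those left out, and by this sum chromosome X ranked 3 from the lowest of 23.

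**Figure D1:**
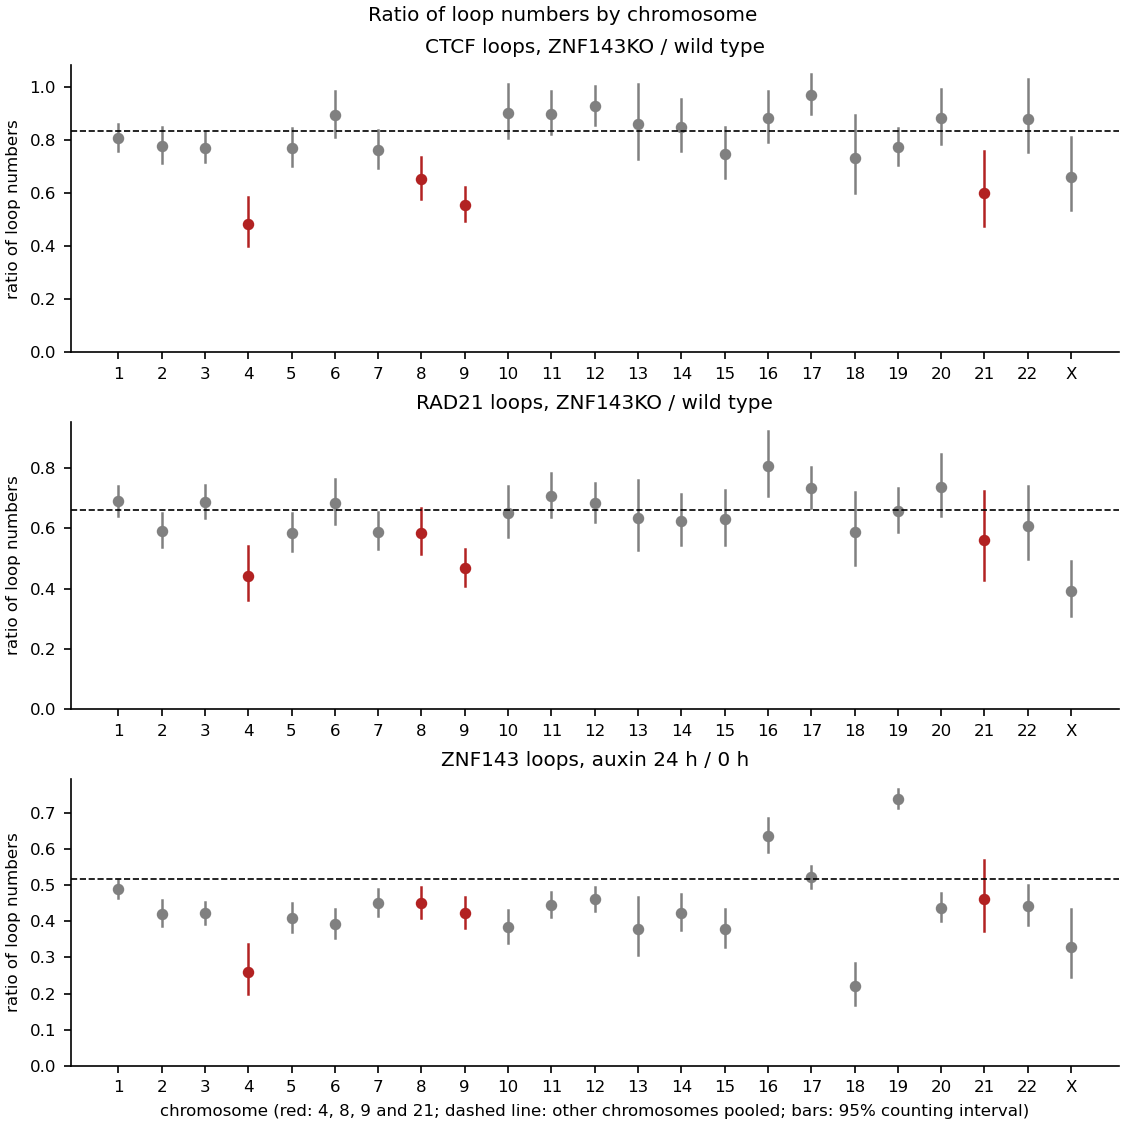
Ratio of the second list's loop number to the first's for chromosomes 1 to 22 and X (vertical axis, linear from 0), with chromosomes 4, 8, 9 and 21 in red, the pooled other chromosomes as a dashed line and 95% counting intervals as bars. In the CTCF panel the 4 red points are the lowest; in the RAD21 panel chromosome X (0.391) is lowest; after auxin only chromosome 4 of the red points lies apart from the bulk.

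The auxin lists, which did not enter the choice, gave a different order. ZNF143 loops on chromosome 4 went from 281 at 0 h to 73 at 24 h (0.260, 0.198 to 0.337), the next to lowest ratio after chromosome 18 (0.221). Chromosome 8 went from 1391 to 625 loops (0.449), chromosome 9 from 1238 to 522 (0.422) and chromosome 21 from 288 to 133 (0.462). These 3 ratios ranked 16, 10 and 19 from the lowest of 23, and the median of the other chromosomes was 0.422. Against all other chromosomes pooled (0.517) the 4 chromosomes together stood at 0.818 (0.766 to 0.874). Chromosome 19 weighed heavily in that reference, since it held 7951 of the 37207 other ZNF143 loops at 0 h and had a ratio of 0.739. With chromosome 19 left out of the reference, the relative ratio was 0.927 (0.867 to 0.991) for the 4 together and 0.569 (0.439 to 0.737) for chromosome 4, while the intervals of chromosomes 8, 9 and 21 included 1.

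The same 4 chromosomes were also compared between the untreated CTCF-AID list and the wild-type ZNF143 list, which differ in line and in list layout, and which share the 0 h list with the auxin comparison. The 0 h list held more loops on every chromosome, 3.54 times as many on the 4 chromosomes together and 3.36 times on the others (relative 1.05, 0.975 to 1.14). Chromosome 4 went from 41 to 281 loops (6.85), the highest of 23 chromosomes, and chromosome 9 from 449 to 1238 (2.76), which ranked 3 from the lowest. Chromosomes 8 (4.20) and 21 (3.47) lay between them. Chromosome 4 was thus sparse in ZNF143 loops in wild-type cells, at 0.219 loops per Mb up to its last anchor, against 2.26 on chromosome 8, 3.19 on chromosome 9 and 1.73 on chromosome 21. Of those left out, chromosome X was near it at 0.324, and all of them pooled were at 4.42. Chromosome 4 was also sparse in wild-type CTCF loops (1.82 per Mb, against 6.89 on the chromosomes left out), so this was not particular to ZNF143.

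By arm, the lower loop numbers in ZNF143KO cells were not limited to one side of the centromere. Arms were separated at the widest stretch without an anchor; on chromosome 4 that stretch (174.3 to 184.0 Mb) lies inside the long arm, so the widest between 45 and 55 Mb was taken after seeing this. CTCF loops on the short arm of chromosome 4 went from 108 to 53 (0.491) and on the long arm from 234 to 113 (0.483), so the arms differed by a factor of 1.02 (0.683 to 1.51). On chromosome 9 the short arm went from 291 to 154 (0.529) and the long arm from 521 to 297 (0.570). On chromosome 8 the short arm went from 305 to 182 (0.597) and the long arm from 398 to 277 (0.696). The short-to-long factor was 0.928 (0.729 to 1.18) on chromosome 9 and 0.857 (0.675 to 1.09) on chromosome 8. In CTCF lists, no arm-to-arm difference in loop numbers exceeded counting error. Summed counts lay further apart, with short-arm and long-arm ratios of 0.399 and 0.548 on chromosome 8 and 0.448 and 0.340 on chromosome 4. On chromosome 9 they were 0.369 and 0.418. No interval was computed for these. Chromosome 21 had 1 wild-type CTCF loop on its short arm, so only its long arm could be described (195 to 116 loops, 0.595).

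RAD21 loops behaved similarly by arm, with somewhat lower ratios on the short arms of chromosomes 8 and 9. On chromosome 9 the short arm went from 223 to 87 loops (0.390) and the long arm from 499 to 250 (0.501). On chromosome 8 these were 269 to 138 (0.513) and 363 to 232 (0.639). The short-to-long factors were 0.779 (0.582 to 1.04) and 0.803 (0.617 to 1.04), and on chromosome 4 the factor was 1.33 (0.856 to 2.07). All 3 intervals, which are of loop numbers, include 1. By summed count, the short-arm and long-arm ratios were 0.245 and 0.362 on chromosome 9 and 0.356 and 0.473 on chromosome 8. On chromosome 4 they were 0.407 and 0.285, and no interval was computed for these counts. On chromosome 4 the short arm went from 79 to 43 loops (0.544) and the long arm from 237 to 97 (0.409). Relative to the other chromosomes, the long arm of chromosome 8 stood at 0.969 (0.820 to 1.14) and the short arm of chromosome 4 at 0.825 (0.569 to 1.197), so neither was set apart from them.

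After auxin the difference between arms rested on 1 window each on chromosomes 4 and 8. On chromosome 8, ZNF143 loops on the short arm went from 387 to 113 (0.292) and on the long arm from 1004 to 512 (0.510), a factor of 0.573 (0.453 to 0.724). Without the 140 to 150 Mb window, which went from 437 to 343 loops, the long arm went from 567 to 169 (0.298) and the factor was 0.980 (0.747 to 1.28). On chromosome 4 the short arm went from 148 to 48 loops (0.324) and the long arm from 133 to 25 (0.188), a factor of 1.73 (1.01 to 2.95). Without the 0 to 10 Mb window the short arm went from 43 to 4 (0.0930), and the factor turned to 0.495 (0.163 to 1.50). The arms of chromosome 9 were alike at 0.422 and 0.421; without the 130 to 140 Mb window the long arm was at 0.333 and the factor 1.27 (0.988 to 1.63). In the ZNF143KO comparisons, leaving out the window with most loops on each of these 3 chromosomes moved no factor out of its interval.

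Windows of 10 Mb gave a finer view. Loops were placed by their midpoint, and a window was described when the first list had at least 20 loops in it. Of 52 windows with a loop on the 4 chromosomes, 37 were described for CTCF, 35 for RAD21 and 31 for auxin. In 36 of 37 CTCF windows and in all 35 RAD21 windows the ZNF143KO list held fewer loops than wild type. Most windows of the other chromosomes did too, with median ratios of 0.808 for CTCF and 0.629 for RAD21. The ratio was under that of the other chromosomes in 33 of 37 CTCF windows and in 29 of 35 RAD21 windows. On the other chromosomes this was so in 112 of 202 CTCF windows and 115 of 208 RAD21 windows. The sparse windows left out went from 115 to 57 CTCF loops (0.496, 0.354 to 0.687) and from 139 to 71 RAD21 loops (0.511, 0.378 to 0.685). Both intervals include the ratio of the 4 chromosomes as a whole. For auxin this was not so: the 21 sparse windows went from 169 to 35 loops (0.207, 0.140 to 0.299), below the 0.423 of the 4 chromosomes. On chromosome 4 they held 141 of the 281 loops at 0 h and 26 of the 73 at 24 h, so the auxin windows describe only part of that chromosome.

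A window was called low when its ratio was at least 1.5 times below that of the other chromosomes pooled. For CTCF, 18 of 37 windows on the 4 chromosomes were low, and over all chromosomes 15.5% of 239 windows were. For RAD21, 11 of 35 were low, against 13.6% of 243 overall. These shares follow from the choice of the chromosomes and support nothing further. On chromosome 9 all 11 CTCF windows lay under the reference and 6 were low. On chromosome 4 all 9 lay under it and 6 were low, and on chromosome 21 all 3 lay under it and 2 were low. On chromosome 8, 10 of 14 CTCF windows lay under the reference and 4 were low. For RAD21 the numbers were 10 of 14 and 2 on chromosome 8, 6 of 7 and 4 on chromosome 4, and 10 of 11 and 5 on chromosome 9. On chromosome 21 all 3 RAD21 windows lay under the reference and 0 were low.

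**Figure D2:**
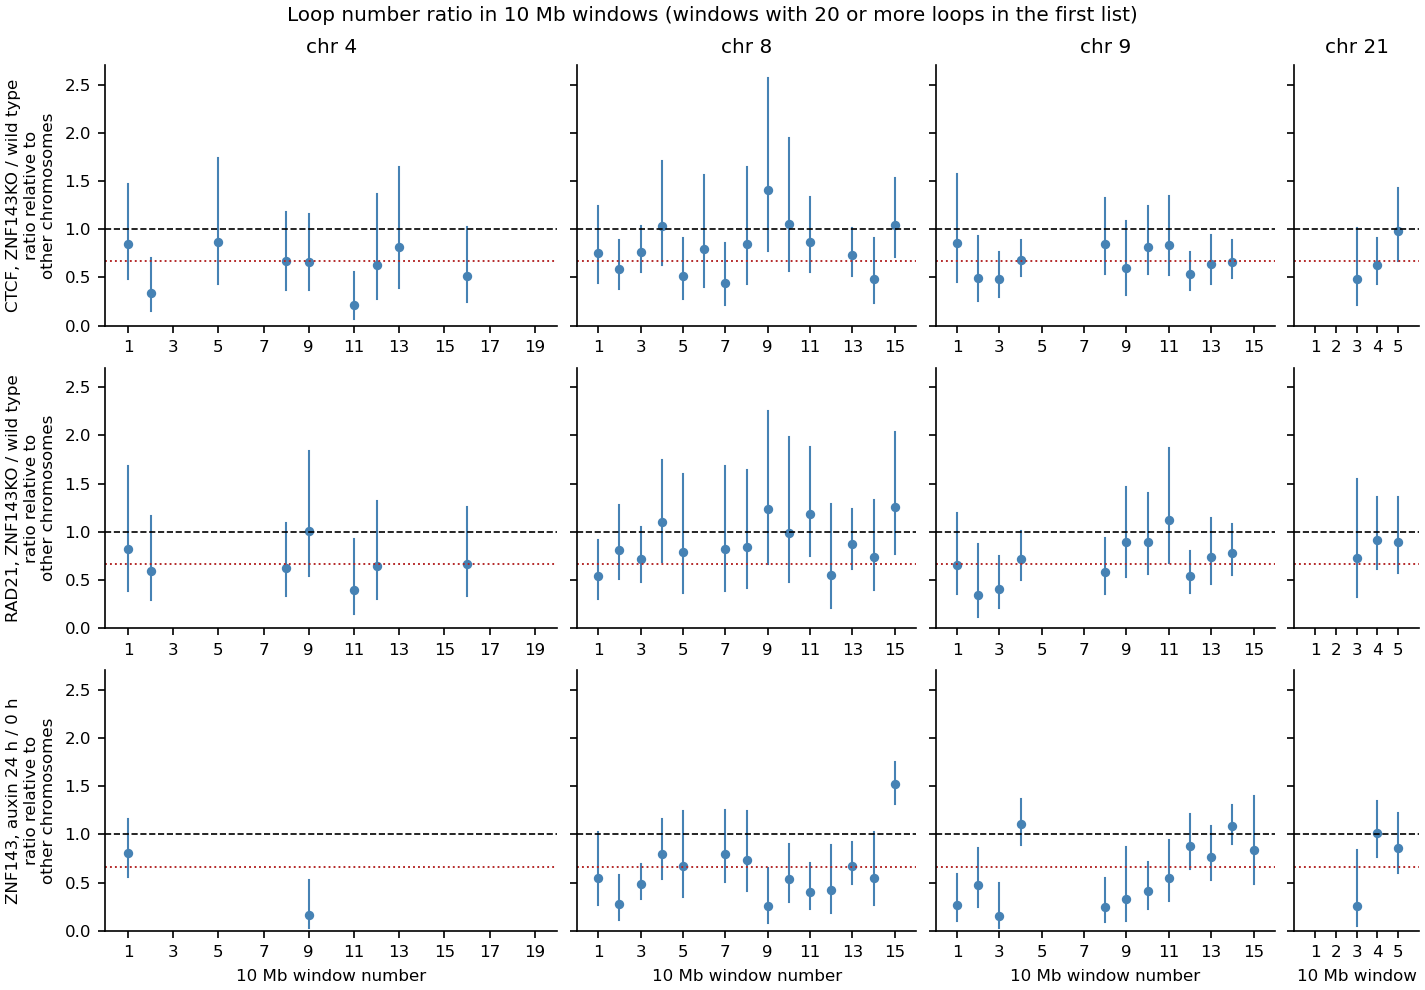
Loop number ratio of each 10 Mb window relative to the other chromosomes pooled (vertical axis, linear; windows numbered from the short-arm end on the horizontal axis), for windows with at least 20 loops in the first list; bars are 95% counting intervals scaled by the same reference, the dashed line is 1 and the dotted line is 1.5 times below it. On chromosomes 4 and 9 every CTCF point lies under the dashed line, on chromosome 8 points lie on both sides, and after auxin the last window of chromosome 8 lies at 1.52, far above its neighbours.

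The scatter among windows of a chromosome was set against counting error by a dispersion, the squared deviations from the chromosome's own ratio divided by what binomial counting gives, so that a value near 1 means that counting alone would scatter the windows this much. For CTCF it was 0.867 on chromosome 9, 1.46 on chromosome 4, 1.51 on chromosome 8 and 2.20 on the 3 windows of chromosome 21. On the other 19 chromosomes the median was 1.11 and the range 0.147 to 4.06. For RAD21 it was 0.703 on chromosome 4, 1.03 on chromosome 8, 1.46 on chromosome 9 and 0.166 on chromosome 21, with a median of 0.945 elsewhere. The scatter within each chromosome was thus in the range of the other chromosomes (0.508 to 2.37 for RAD21), except for chromosome 21 with RAD21, which lay below it. Chromosome 9 had the least scatter of the 4 for CTCF and chromosome 21 for RAD21. After auxin the dispersion was larger on all of them, 7.53 on the 2 windows of chromosome 4, 8.76 on chromosome 8, 5.61 on chromosome 9 and 2.89 on chromosome 21, against a median of 3.57 elsewhere. The auxin lists therefore fell unevenly along these chromosomes, as along the others.

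The windows with the lowest and highest summed ratios are given next as the extremes of each chromosome. They were picked for that, and several of the dispersions above were near or under 1. The sum counts a loop listed with both antibodies in each of them. This holds for 910 wild-type CTCF loops on the 4 chromosomes, so intervals of summed ratios are too narrow. On chromosome 4 the lowest window was 100 to 110 Mb, with 28 CTCF loops falling to 5 and 27 RAD21 loops to 7, a summed ratio of 0.218 (0.106 to 0.412). Its highest was 0 to 10 Mb, where 34 CTCF loops went to 24 and 24 RAD21 loops to 13 (0.638, 0.411 to 0.980). These 2 intervals barely overlap, and the other 5 windows with 20 loops for both antibodies lay between them.

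Chromosome 9 had a low stretch over 2 neighbouring windows of its short arm, a stretch named after the values were seen. From 10 to 20 Mb, 36 CTCF loops went to 15 and 26 RAD21 loops to 6 (summed ratio 0.339, 0.196 to 0.563). From 20 to 30 Mb, 67 CTCF loops went to 27 and 52 RAD21 loops to 14 (0.345, 0.235 to 0.495). The windows with most loops on each arm were less low: 30 to 40 Mb went from 159 to 90 CTCF loops and from 104 to 49 RAD21 loops (0.529), and 130 to 140 Mb from 132 to 73 and from 113 to 58 (0.535). On the long arm, 110 to 120 Mb was lower again, from 103 to 46 and from 103 to 37 (0.403, 0.308 to 0.522). The highest window was 100 to 110 Mb (47 to 33 and 39 to 29, 0.721).

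On chromosome 8 the ratios lay on both sides of the reference. The lowest window, 60 to 70 Mb, went from 35 to 13 CTCF loops and from 24 to 13 RAD21 loops (0.441, 0.267 to 0.710). Its highest, 80 to 90 Mb, went from 23 to 27 CTCF loops, the only described CTCF window on the 4 chromosomes with more loops in ZNF143KO cells, and from 27 to 22 RAD21 loops (0.980, 0.647 to 1.48). The 140 to 150 Mb window went from 63 to 55 CTCF loops and from 41 to 34 RAD21 loops (0.856, 0.637 to 1.15), and 30 to 40 Mb went from 37 to 32 and from 47 to 34 (0.786). These last 3 windows sat above the reference ratio of the other chromosomes for both antibodies together (0.753). On chromosome 21 the ratio was 0.440 at 20 to 30 Mb, 0.563 at 30 to 40 Mb and 0.703 at 40 to 50 Mb, with overlapping intervals.

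Across the 34 windows described for both antibodies, the log2 ratios of CTCF and RAD21 had a Pearson correlation of 0.675, and 27 of them lay under the reference for both. On the other chromosomes the correlation was 0.395 over 197 windows, with 75 under it for both. The 2 comparisons share no library, but they share the ZNF143KO line and the change of list layout. Within single chromosomes the correlation was 0.832 over 7 windows of chromosome 4, 0.636 over 13 of chromosome 8 and 0.678 over 11 of chromosome 9. Of the 34 windows, 7 were low for both antibodies, 4 on chromosome 4 and 3 on chromosome 9. On the other chromosomes 6 of 197 were, and over all 231 windows 5.63%.

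The auxin windows, which did not enter the choice, are set beside these. For auxin, 27 of 31 windows lay under the pooled reference and 17 were low, while 43.5% of the 246 windows of all chromosomes were low and 170 of 215 lay under the reference elsewhere. Without chromosome 19 in the reference and among the others, 26 of 31 lay under it and 17 were low, against 141 and 70 of 209. The 80 to 90 Mb window of chromosome 8, its highest in ZNF143KO cells, went from 38 to 5 loops after auxin (0.132). The 140 to 150 Mb window of chromosome 8 went from 437 to 343 loops (0.785), the only window on the 4 chromosomes at least 1.5 times above the reference. It held 343 of the 512 loops listed on the long arm at 24 h. On chromosome 9 the 30 to 40 Mb and 130 to 140 Mb windows went from 252 to 144 and from 326 to 183 loops (0.571 and 0.561), while 20 to 30 Mb went from 37 to 3. On chromosome 4 only 2 windows had 20 loops at 0 h: 0 to 10 Mb went from 105 to 44 loops and 80 to 90 Mb from 35 to 3. Windows with many ZNF143 loops at 0 h had higher ratios of loop numbers, on these chromosomes (0.532 pooled over windows with at least 80 loops, 0.117 with 20 to 39) as on the others (0.543 and 0.285).

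For the ZNF143KO lists, windows were grouped by their wild-type loop number in the same way, since chromosome 4 is poor in loops. CTCF windows with 20 to 39 wild-type loops pooled at 0.570 on the 4 chromosomes and 0.783 on the others. With 40 to 79 loops the values were 0.646 and 0.775, and with at least 80 they were 0.556 and 0.868. For RAD21 the classes gave 0.506 and 0.602, 0.540 and 0.626, and 0.478 and 0.699. Pooled, the 4 chromosomes were lower in each class, but not each chromosome was. The 1 CTCF window of chromosome 21 with 40 to 79 loops was at 0.815, above the others, and chromosome 8 was level with them for RAD21 in that class (0.625). All 9 CTCF windows of chromosome 4 were in the class of 20 to 39 loops (0.508).

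By span, the anchor-to-anchor distance, the CTCF ratio of the 4 chromosomes pooled was under that of the others in every class. Relative to the other chromosomes the ratio was 0.758 (0.632 to 0.910) for loops of 20 to 50 kb, 0.672 for 50 to 100 kb and 0.684 for 100 to 200 kb. It was 0.782 (0.681 to 0.897) for 200 to 500 kb, 0.649 for 500 to 1000 kb and 0.765 (0.455 to 1.29) for 1000 to 2000 kb, where only 54 loops went to 23. The single chromosomes were less uniform. Chromosome 21 was near the others at 20 to 50 kb (0.941), 50 to 100 kb (0.984) and 200 to 500 kb (0.961), and lower at 500 to 1000 kb (30 loops to 6; 0.355, 0.147 to 0.856). At 1000 to 2000 kb chromosome 8 had 12 loops in each list (1.80, 0.791 to 4.08), while chromosome 4 went from 15 to 2 and chromosome 21 from 12 to 1. For RAD21 the values ran from 0.682 at 50 to 100 kb to 0.880 at 500 to 1000 kb, and 0.498 (0.258 to 0.959) at 1000 to 2000 kb, where 56 loops went to 12. After auxin the short loops on these chromosomes were at 0.953 (0.778 to 1.17) of the others and those of 1000 to 2000 kb at 0.576 (0.474 to 0.699), with 359 loops going to 155. Without chromosome 19 in the reference these were 1.01 (0.823 to 1.24) and 0.662 (0.544 to 0.807), and every class under 1000 kb had an interval that included 1. With it included, auxin loops of 1000 to 2000 kb were at 0.353 on chromosome 4 and 0.487 on chromosome 8. Chromosomes 9 (0.758, 0.558 to 1.03) and 21 (0.695, 0.345 to 1.40) had intervals that included 1.

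By count, the number of supporting read pairs listed for a loop, the ZNF143KO lists were lower on the 4 chromosomes pooled at every minimum. The CTCF ratio relative to the other chromosomes was 0.697 at the deposited minimum of 2, 0.655 at 3 and 0.667 at 5, nearly level. At a minimum of 10, chosen after seeing the data, it was 0.116 (0.0365 to 0.367), because 117 wild-type loops stood against 3 in ZNF143KO cells, 2 of them on chromosome 8 and 1 on chromosome 9. For RAD21 it was 0.776, 0.757, 0.677 and, at a minimum of 10, 0.332 (0.160 to 0.688), with 116 loops against 8. On chromosome 8 the RAD21 values were 0.887, 0.897, 1.03 and 0.656 (0.276 to 1.56), with no order. Chromosomes 4 and 21 had no ZNF143KO loop of 10 or more counts in either list, where wild type had 14 and 13 for CTCF and 14 and 18 for RAD21. After auxin the relative ratio was 0.818, 0.872, 0.843 and 1.10 (0.838 to 1.45).

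**Figure D3:**
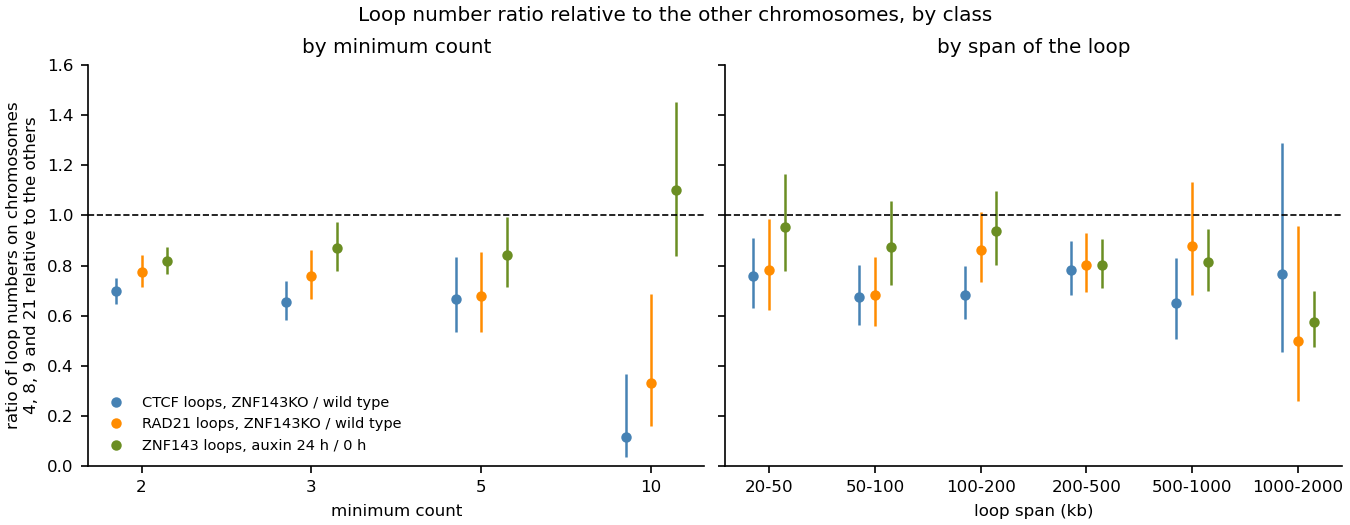
Ratio of loop numbers on chromosomes 4, 8, 9 and 21 relative to the other chromosomes (vertical axis, linear), by minimum count in both lists (left) and by loop span in kb (right), with 95% counting intervals as bars and 1 as a dashed line. The CTCF points fall to 0.116 and the RAD21 points to 0.332 at a minimum of 10, while the auxin point rises to 1.10. Across spans the CTCF points stay between 0.649 and 0.782. The reference of the auxin points includes chromosome 19.

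Read counts fell together with loop numbers. The summed count of CTCF loops on the 4 chromosomes went from 7612 to 3219 (0.423), against 0.588 on the others. For RAD21 it went from 7298 to 2610 (0.358), against 0.460. Chromosome 4 was lowest for CTCF at 0.369 (1129 to 417 counts), with chromosome 9 at 0.399, chromosome 21 at 0.418 and chromosome 8 at 0.474. The mean count of a listed CTCF loop on chromosome 4 went from 3.30 to 2.51, and on the other chromosomes from 4.24 to 2.99.

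Loops were next followed one by one. A loop was found again when both its anchors, widened by 5 kb, overlapped the anchors of a loop in the second list. Of 2053 wild-type CTCF loops on the 4 chromosomes, 612 were found in the ZNF143KO list (29.8%, 27.9 to 31.8), against 40.2% elsewhere, so 70.2% were not found where the figure for all chromosomes was 60.9%. On chromosome 4, 83 of 342 were found (24.3%), on chromosome 21, 57 of 196 (29.1%), on chromosome 9, 247 of 812 (30.4%) and on chromosome 8, 225 of 703 (32.0%). Chromosomes X (26.3%) and 13 (30.8%) lay within this range, so by this measure the 4 were not apart from all others. Of 1838 RAD21 loops, 503 were found (27.4%, 25.4 to 29.5), against 35.0% elsewhere, and 72.6% were not found, against 65.9% for all chromosomes. Chromosomes X (22.1%) and 13 (23.3%) had lower RAD21 shares than chromosome 4 (25.0%). For auxin, 589 of 3198 loops were found (18.4%) against 25.2% elsewhere, and 81.6% were not, against 75.3% for all. Chromosome 19 alone had 42.3% found, and the other chromosomes without it 20.5% (20.09 to 21.02). Chromosome 4 (11.03%) ranked 3 from the lowest of 23, and chromosomes 9 (18.0%), 21 (18.4%) and 8 (20.3%) ranked 11, 12 and 16.

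The share found rose with the count in every group. For CTCF on the 4 chromosomes it was 17.8% at a count of 2, 32.2% at 3 to 4, 49.4% at 5 to 9 and 82.1% (74.1 to 88.0) at 10 or more. On the other chromosomes it was 25.0%, 42.3%, 64.2% and 90.7%. For RAD21 the 4 chromosomes gave 14.4%, 28.4%, 46.7% and 79.3%, and the others 19.3%, 34.2%, 59.6% and 87.0%. Because the same ZNF143KO lists chose the chromosomes, lower shares on them were likely beforehand and support nothing further. The 4 chromosomes were lower in all 8 of these comparisons, and the intervals overlapped only for RAD21 loops of 10 or more (71.1 to 85.7 and 85.0 to 88.9). Strong loops were thus mostly still listed but with few counts: the 117 wild-type CTCF loops of 10 or more went from a summed count of 1803 to a matched count of 487 (0.270), against 0.363 elsewhere. Relative to elsewhere that was 0.744, and for loops of 2, 3 to 4 and 5 to 9 counts it was 0.656, 0.640 and 0.635. The RAD21 values were 0.764 at 10 or more and 0.688 to 0.725 below. A loop with no match of 2 or more counts enters these sums as 0, which weighs most on loops of low count, so the classes give no order of loss by strength. For loops of 10 or more the CTCF ratio was 0.182 on chromosome 4 and 0.255 on chromosome 21, the 2 lowest of 23, and 0.280 on chromosome 9 and 0.289 on chromosome 8, which ranked 7 and 10. For RAD21 it was 0.158 on chromosome 4, 0.172 on 21, 0.232 on 9 and 0.313 on 8, and chromosome 13 was lowest (0.147). Chromosomes 4 and 21 had 13 to 18 such loops per list, so 1 loop weighs heavily there.

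**Figure D4:**
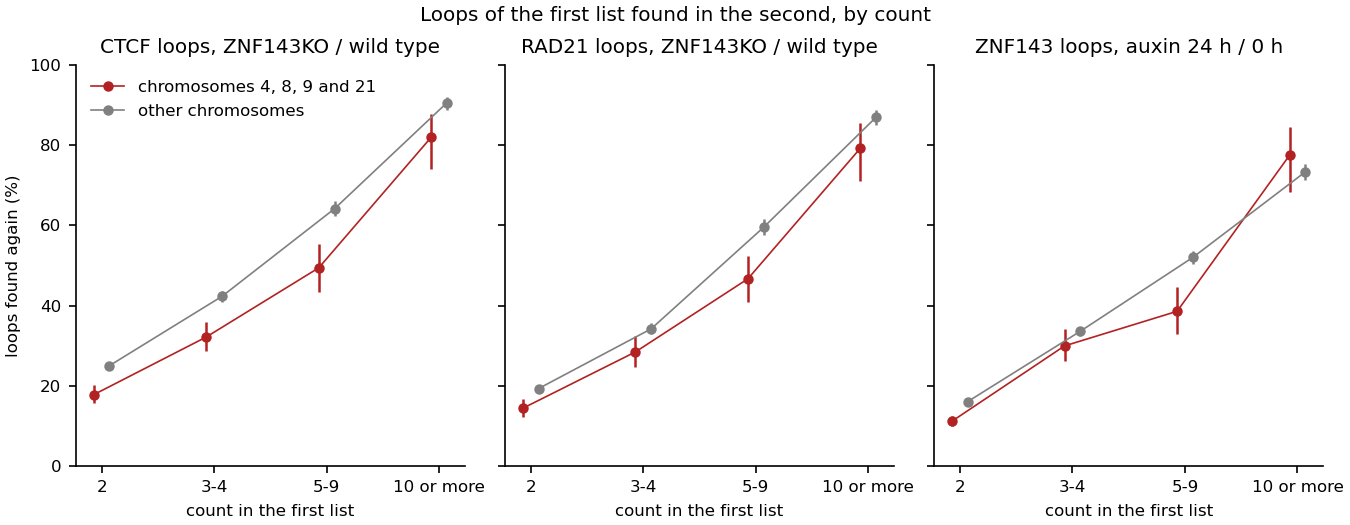
Share of loops of the first list found in the second (vertical axis, percent from 0 to 100) by their count in the first list (horizontal axis), for chromosomes 4, 8, 9 and 21 in red and the other chromosomes in grey, with 95% Wilson intervals as bars. Red lies below grey in all 4 count classes for CTCF and RAD21, for example 49.4% against 64.2% for CTCF at counts of 5 to 9; for auxin the order turns at 10 or more (77.6% against 73.4%).

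New loops were fewer as well. In the ZNF143KO CTCF list 615 of 1194 loops on the 4 chromosomes were not found in wild type (51.5%, 48.7 to 54.3), a share close to the 53.0% elsewhere. Set against the wild-type number, that was 0.300 new loops per wild-type loop, compared with 0.442 on the other chromosomes. For RAD21, 474 of 941 were new (50.4%, against 49.0% elsewhere), or 0.258 per wild-type loop against 0.323. Loops found again and new loops were both fewer per wild-type loop on these chromosomes than elsewhere. With shares of new loops close to those elsewhere, this restates the ratio by which the chromosomes were chosen and is no further result. The highest count of a new loop was 8 among these 615 CTCF loops and 41 among 7630 elsewhere, and for RAD21 it was 11 among 474 and 14 among 4836.

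Anchors became fewer along with loops. Merged CTCF anchors on the 4 chromosomes went from 1984 to 1505 (0.759, relative to the others 0.788, 0.734 to 0.846), and on chromosome 4 from 404 to 255 (0.631). Of the wild-type anchors, 53.0% were found among ZNF143KO anchors, against 66.3% elsewhere. Of the 1441 CTCF loops not found again, 400 had both anchors in use in other ZNF143KO loops (27.8%, 25.5 to 30.1), against 44.4% elsewhere. On chromosome 4 these were 34 of 259 (13.1%), and neither anchor was in use for 106 (40.9%). On chromosomes 8 and 9 both anchors were in use for 29.7% and 30.6%, and neither for 11.9% and 16.1%. On chromosome 21 both were in use for 36.7%, the highest of the 4, and neither for 25.2%. On the other chromosomes neither anchor was in use for 11.5%. For RAD21, both anchors were in use for 22.8% of the 1335 loops not found, against 34.6% elsewhere, and neither for 28.5%, against 17.6%. Chromosome 4 was again lowest for both anchors (10.1%) and highest for neither (44.7%). Chromosomes 8, 9 and 21 had another order than for CTCF: both were in use for 18.5% on chromosome 21, 25.6% on chromosome 9 and 27.6% on chromosome 8, and neither for 26.6%, 25.6% and 23.8%.

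Wild-type loops present with both CTCF and RAD21 were traced in both ZNF143KO lists. On the 4 chromosomes 910 wild-type CTCF loops were also in the RAD21 list, and 244 of them (26.8%, 24.0 to 29.8) were found in both ZNF143KO lists, against 38.1% of 8058 elsewhere. Neither list held 335 (36.8%), against 27.7%. By chromosome, the share found in both was 22.9% on chromosomes 4 and 9, 31.7% on chromosome 8 and 33.0% on chromosome 21.

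Single loops are given next as examples. The first 4 were picked for the highest wild-type CTCF count, so lower counts in ZNF143KO cells follow partly from the choice. Elsewhere, wild-type CTCF loops of 10 or more counts also fell, to 0.363 of their summed count. Coordinates are in hg19, with starts written as counted from 1 on the assumption that the lists count from 0, and no gene was assigned to an anchor because no annotation of that build was used here. The wild-type CTCF loop with the highest count on chromosome 9 joined chr9:132401587-132405374 to chr9:132545431-132546813. It went from 45 to 15 counts with CTCF and from 42 to 16 with RAD21, had 0 listed counts with ZNF143 in wild-type cells, 2 at 0 h of auxin and 0 at 24 h. On chromosome 8 the strongest joined chr8:28219385-28221790 to chr8:28276448-28277885. It went from 34 to 9 with CTCF and from 40 to 3 with RAD21, and had 2, 4 and 0 ZNF143 counts in wild-type, 0 h and 24 h lists. The strongest on chromosome 4, chr4:110919474-110921183 to chr4:111429177-111438333, went from 22 to 8 with CTCF and from 7 to 3 with RAD21, and had 3, 3 and 0 ZNF143 counts in the same order. That on chromosome 21, chr21:43029700-43034487 to chr21:43188123-43189741, went from 20 to 5 and from 27 to 3, with ZNF143 counts of 0, 2 and 0. Each of the 4 remained listed with both antibodies, at lower counts.

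Others were in neither ZNF143KO list, where 0 means that no matching loop of 2 or more counts was listed. Of the wild-type CTCF loops, 217 of 342 on chromosome 4, 392 of 703 on chromosome 8, 478 of 812 on chromosome 9 and 121 of 196 on chromosome 21 were in neither list, or 63.5%, 55.8%, 58.9% and 61.7%, where the figure for all chromosomes was 50.8%. Of the loops with 5 or more counts, 11 of 52, 28 of 128, 41 of 152 and 13 of 46 were in neither, 24.6% on the 4 together against 17.2% on all chromosomes. The strongest on chromosome 4, chr4:72597029-72599291 to chr4:73160935-73162546, had 15 CTCF and 5 RAD21 counts in wild type. On chromosome 8, chr8:23152319-23154473 to chr8:23328809-23330669 had 14 and 8. On chromosome 9, chr9:124049018-124050524 to chr9:124081683-124083288 had 15 and 2, and a ZNF143 count of 3 at 24 h of auxin. On chromosome 21, chr21:32570235-32572084 to chr21:32976517-32977710 had 13 and 12, and a ZNF143 count of 2 at 0 h of auxin. None of these 4 had a wild-type ZNF143 count.

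New loops with the highest CTCF count in ZNF143KO cells were weaker. On chromosome 8, chr8:27454118-27455510 to chr8:27493255-27494766 had 8 counts, and wild-type RAD21 had listed it with 2. On chromosome 4, chr4:148516451-148518765 to chr4:148787284-148788792 had 6, the wild-type RAD21 list already held it with 9, and the ZNF143 list at 0 h had 2. On chromosome 9, chr9:131587773-131589602 to chr9:131688901-131691116 had 6 counts and no match in any other list. On chromosome 21, chr21:10817931-10829758 to chr21:10830626-10857727 on the short arm had 5, with 4 ZNF143 counts at 0 h and 3 at 24 h.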

How the data were processed

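The authors deposited 1 loop list per HiChIP library, each line holding 2 anchors and a whole-number count, taken as the supporting read pairs; the deposited counts start at 2 and are not scaled. HiC-Pro and hg19 are named in the submitters' processing notes; the loop caller and its filters are not given in the sources used here. The listed total count ran from 33460 to 143119 and is not the library's depth, which is unknown. The wild-type ZNF143 list and both ZNF143KO lists have 7 tab-separated columns and the other 4 lists 8 space-separated ones, so list making and genotype cannot be told apart.

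The chromosomes and all classes were chosen with earlier results of these data known. Starts were raised by 1 on the assumption that the lists count from 0, as BEDPE does; the files do not say, so printed starts may be off by 1 base. Ratios of loop numbers carry intervals from the exact (Clopper-Pearson) binomial split, ratios relative to the other chromosomes a normal interval of the log, and shares Wilson intervals, all at 95%. The loops named, per chromosome, are the wild-type CTCF loop of highest count, the same among those in neither ZNF143KO list, and the ZNF143KO CTCF loop of highest count not found in wild type, ties going to the shorter span. The windows named are those with the lowest and highest summed ratio among windows with at least 20 wild-type loops per antibody; others were chosen after their values were seen. When a loop matched several, the highest count was used. Python 3.11.15, pandas 2.3.3, numpy 2.4.6 and scipy 1.17.1 were used. The matching, the relative ratio and the thinning were tested on simulated data, but the intervals were not. No sequence was printed.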

Additional observations from a re-analysis of the deposited data

How the results depend on the processing

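Across 68 alternatives for the 4 relative ratios and the shares of windows under the reference, 56 stayed inside the interval of the value reported. All 12 alternatives for the shares of windows did, from 83.8% to 95.1% for CTCF and from 72.5% to 87.0% for RAD21. The CTCF ratio of 0.697 became 0.788 with merged anchors and 0.116 at a minimum count of 10, and the RAD21 ratio of 0.776 became 0.677 at a minimum of 5 and 0.332 at 10. The auxin ratio of 0.818 turned to 1.10 at a minimum of 10 and to 1.00 against the median of the other chromosomes, and was 0.927 without chromosome 19 in the reference. The 0 h to wild-type ratio of 1.05 became 0.908 at a minimum of 10, 1.14 with merged anchors, 0.943 against the median of the others, 0.939 without chromosome 8 and 1.28 without chromosome 9. The minimum of 10 leaves few loops; the cause of the other shifts was not tested. Without the window with most loops, the auxin factor between the arms of chromosome 4 turned from 1.73 to 0.495, and that of chromosome 8 went from 0.573 to 0.980. The minimum of 10, the reference without chromosome 19 and the arms without a window were chosen after seeing the data. Matching without widened anchors gave 25.6% of CTCF loops found, and 10 kb gave 33.2%. No paired analysis was possible because each group has 1 library. A loop with fewer than 2 counts is not listed, so a loop not found is not shown to be absent.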
